A study of Mus musculus with 8 samples.

Results

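The genes described here encode 8 chemokine ligands, Ccl17, Ccl21b, Ccl25, Ccl27a, Cxcl12, Cxcl14, Cxcl16 and Cx3cl1. They were taken by symbol from a table of 24344 gene symbols on 24883 rows. They occupied 14 rows, 7 of which carried the name Ccl21b. Ccl17 and Ccl21b were chosen by their rise in the fasted libraries described here, so their difference between the groups is given without a test. The tissue was whole occipital cortex, where the visual areas lie, from C57BL/6J mice aged 35 postnatal days, homogenised and sequenced as RNA. Of the 8 libraries, 4 came from mice kept without food for 48 h and 4 from mice fed ad libitum. No mutation, transgene or drug is named for either group. The values are FPKM, in which fragments are scaled to transcript length and to the number mapped, so that levels can be compared between genes of different length.

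Chemokines are small secreted proteins that bind G protein-coupled receptors and steer the movement of cells along a gradient. They are classed by the spacing of their first cysteines as CC, CXC or CX3C chemokines, named Ccl, Cxcl and Cx3cl. Most inflammatory chemokines are barely made in healthy brain, whereas Cx3cl1 (fractalkine), Cxcl12 and Cxcl14 are made there without inflammation. Fractalkine is tethered to the membrane of neurons, and its receptor Cx3cr1 is carried by microglia, the resident macrophages of the brain.

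The members covered a wide range of levels. In fed cortex the order of mean FPKM was Cx3cl1 at 245.0, Ccl27a at 91.3, Cxcl14 at 25.6, Cxcl12 at 18.2, Ccl25 at 2.61, Cxcl16 at 0.446 and Ccl17 at 0.389, leaving aside Ccl21b with its repeated rows. The library values of neighbours in this order did not overlap, except for Cxcl16 and Ccl17. In fasted cortex the first 4 kept their places. Ccl17, at a mean of 3.34 FPKM, then stood beside Ccl25 at 3.02, with overlapping values, and Cxcl16 was lowest at 0.442.

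**Figure D1:**
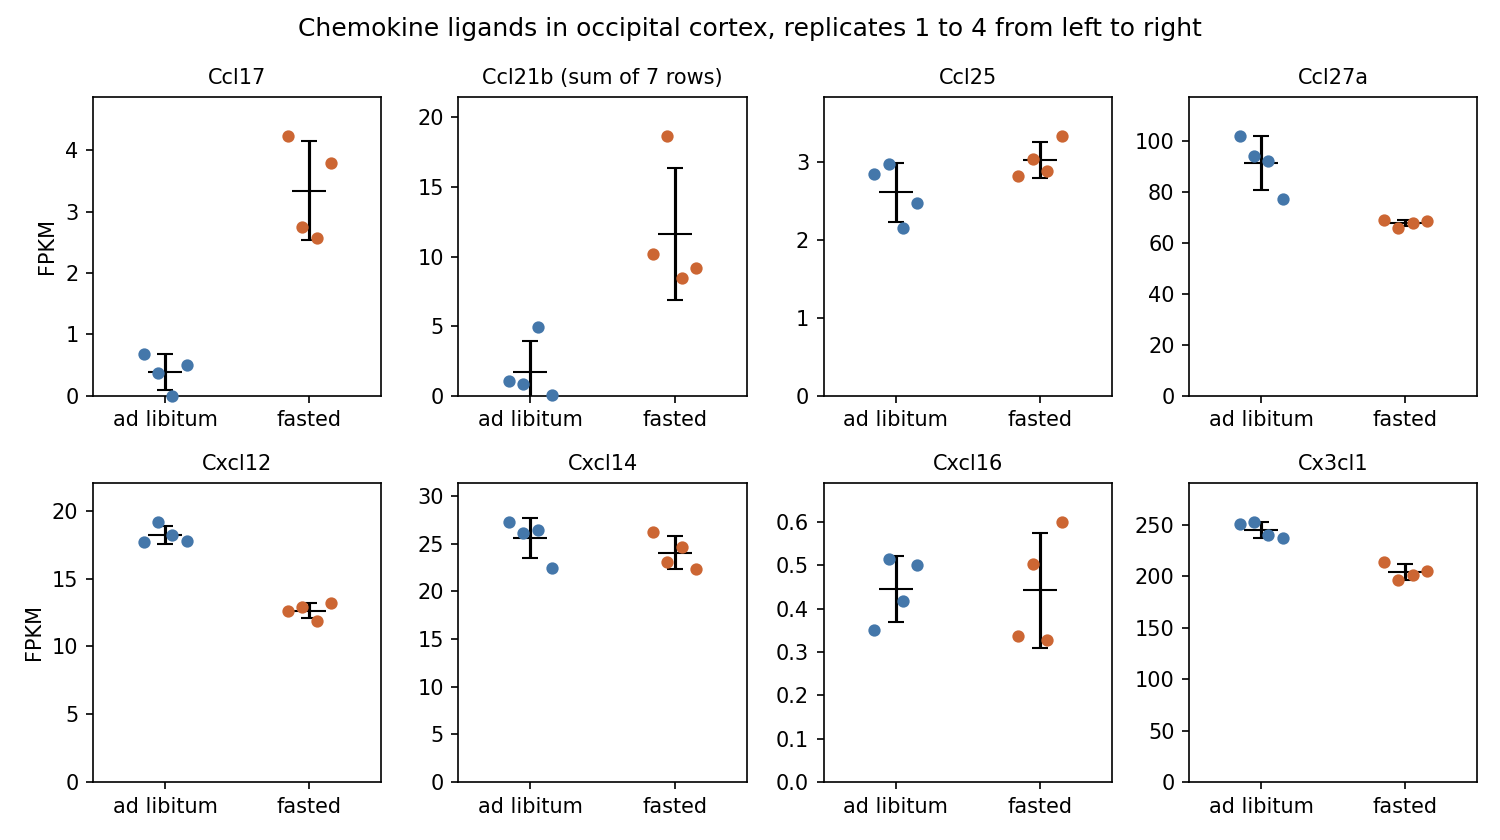
FPKM of each chemokine ligand (vertical axis, linear from 0, with a scale of its own in each panel) in the 4 ad libitum (blue) and 4 fasted (orange) libraries, replicates 1 to 4 from left to right; black marks are the mean and SD. The groups do not overlap for Ccl17, for the sum of the Ccl21b rows, and for Ccl27a, Cxcl12 and Cx3cl1, and overlap for Ccl25, Cxcl14 and Cxcl16.

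Genes at 1 FPKM or more numbered 12217 to 12440 per library. FPKM do not give depth directly. The spacing of low values in genes with a single annotated transcript gave an estimate of 17400000 to 22000000 fragments per library, read from a bounded range and so uncertain. All 8 excitatory and all 9 inhibitory neuron markers looked at passed the filter on low values, so the markers of the labelled tissue were present. Ad libitum replicate 3 stood apart in holding both Xist (32.2 FPKM) and the Y-linked Ddx3y (5.67 FPKM). In the other libraries Xist was at 62.9 to 77.5 FPKM with Ddx3y at 0.0225 or less in even replicate numbers, and Ddx3y at 10.5 to 14.4 with Xist at 0.0495 or less in odd ones. Results are therefore also given without that library. By Xist and Ddx3y each group held libraries of both sexes, male at odd and female at even numbers, with ad libitum replicate 3 mixed. The spread within a group thus includes a sex difference and is not that of a single animal. No label says that all 4 libraries of a group are from separate animals, so the p-values measure only the spread between these samples, part of which may be technical.

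The comparison asks which chemokine transcripts change when young mice go without food for 48 h. Of the 8 members 7 reached 1 FPKM in at least 4 libraries and entered the fit over 12377 genes. Cxcl16 did not, and Ccl17 and Ccl21b did so only through their fasted libraries. Among the 5 tested members that were not picked for their rise, Cxcl12, Ccl27a and Cx3cl1 fell in fasted cortex, and Ccl25 and Cxcl14 did not pass the test (limma on log2(FPKM + 1), Benjamini-Hochberg adjusted p under 0.05 over all tested genes). Over all tested genes 25.8% passed in either direction, 16.3% as falls and 9.56% as rises. Fed and fasted values were fully separate for 27.6% of tested genes, with the fasted side lower for 16.5% and higher for 11.1%. The median log2 change of all tested genes was -0.02.

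Ccl17 encodes a CC chemokine, also called TARC, that is known as a product of dendritic cells and attracts T cells that carry the receptor Ccr4. It is a gene of 1 annotated transcript of 514 nt on chromosome 8 at 94810453 to 94812036 (mm10, plus strand). Its levels were 0.682, 0.370, 0 and 0.503 FPKM in fed replicates 1 to 4 and 4.24, 2.75, 2.57 and 3.80 FPKM in fasted replicates 1 to 4. Every fasted library lay above every fed one, and the lowest fasted value was several times the highest fed value. The means were 0.389 FPKM ± 0.289 (SD, n = 4) and 3.34 ± 0.810 (SD, n = 4), a ratio of 8.60. On the log2(FPKM + 1) scale the difference was 1.65. This scale shrinks low values, and with a pseudocount of 0.1 in place of 1 the difference was 3.13.

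These levels rest on few fragments. With 0.137 to 0.172 FPKM per fragment, estimated from genes of similar length, the fed libraries held about 5, 2, 0 and 3 Ccl17 fragments and the fasted libraries about 25, 16, 19 and 26. A count of 0 in ad libitum replicate 3 allows up to 0.478 FPKM, the value of 3 fragments, for counting error only. Within odd replicate numbers the log2 difference was 1.74 and within even numbers 1.56. Without ad libitum replicate 3 it was 1.5.

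The 250 bases before the RefSeq start of Ccl17, at chr8:94810203-94810452 (GRCm38.p6, plus strand), are shown because Ccl17 is one of the 2 members chosen by their rise, and the one with a single row. Capitals mark matches to the motifs searched.

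Ccl17: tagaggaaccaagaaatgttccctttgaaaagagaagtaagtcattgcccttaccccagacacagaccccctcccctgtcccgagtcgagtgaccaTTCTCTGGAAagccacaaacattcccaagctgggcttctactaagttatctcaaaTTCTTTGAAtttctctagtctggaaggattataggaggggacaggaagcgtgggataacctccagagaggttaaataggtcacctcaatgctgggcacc

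Of 6 motifs searched on both strands, 2 matched. TTCNNNGAA, a form bound by STAT factors, matched as TTCTTTGAA starting 99 bases before the start. It is held by 7.04% of 32536 such windows of the RefSeq table, and among the 7 members with an entry by Ccl17 and Cxcl14. The form known for STAT6, with 1 more base between TTC and GAA, matched as TTCTCTGGAA starting 154 bases before the start and is held by 5.89% of windows. The full palindromic glucocorticoid response element, held by 0.00922% of windows, was not found here. The E-box CACGTG, held by 6.04% of windows, was not found either. Nor was the core of the TATA box, TATAAA, held by 12.3% of windows and by Ccl25 and Cx3cl1 among the members. The AP-1 motif TGANTCA, held by 6.73% of windows and by Ccl27a, was also not found in the Ccl17 window. The 2 matching motifs do not overlap each other here. A match is a stretch of letters and not a measured site.

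Ccl17 lies in a row of 3 chemokine genes on the same strand of chromosome 8. Ccl22, which encodes another ligand of Ccr4, is at 94745590 to 94751699. Cx3cl1 follows at 94772009 to 94782427, and 28.0 kb separate its end from the start of Ccl17. The 3 genes span 66.4 kb. The gene row moved unequally, since Ccl17 was higher and Cx3cl1 was lower in fasted cortex. Ccl22, named after its values were seen, was at 0.117, 0.189, 0.0924 and 0.146 FPKM in the fed libraries and 0.253, 0.322, 0.256 and 0.254 in the fasted ones, with no overlap. Ccl22 failed the filter on low values, and in the fit with no such filter its log2 change was 0.16 (limma adjusted p = 0.0145). That fit called 1226 rises and 1941 falls among 19289 genes. Groups were fully separate for 27.6% of the genes that passed the filter.

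On the other side of Ccl17 the next gene was Ciapin1, 7.8 kb away, which encodes a protein of cytosolic iron-sulfur assembly. It was at 6.92 FPKM ± 0.285 (SD, n = 4) fed and 7.16 ± 0.390 (SD, n = 4) fasted, a log2 change of 0.04 (limma adjusted p = 0.605). Of 7 genes of the table that reach into 100 kb on either side of Ccl17, 5 were tested. Of these 1 fell, Cx3cl1, and 0 rose. Their log2 changes ran from -0.26 to 0.04.

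**Figure D2:**
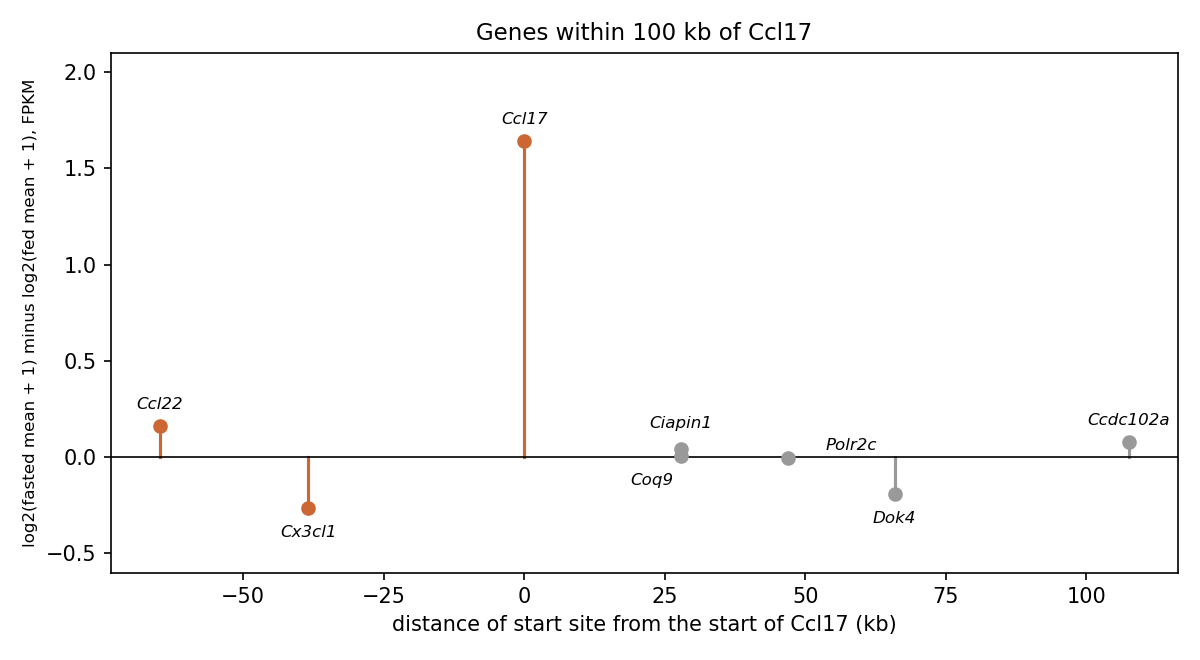
Difference between the group means on the log2(FPKM + 1) scale (vertical axis) for Ccl17 and the 7 other genes of the table that reach into 100 kb on either side of it, by the distance of their start sites from the start of Ccl17 in kb (horizontal axis); orange marks the 3 chemokine genes. Ccl17 stands at 0 kb far above its neighbours, while Cx3cl1 lies below the zero line.

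The genes whose standardised log2(FPKM + 1) profile over the 8 libraries lay nearest to that of Ccl17 were Plekhg5, Nptx1 and Zbtb16, at Euclidean distances of 0.430, 0.439 and 0.472. Plekhg5 encodes a guanine nucleotide exchange factor, Nptx1 a neuronal pentraxin and Zbtb16 a zinc finger transcription factor. All 3 were higher in every fasted library than in any fed one, as were 11.1% of tested genes. They were picked by likeness to Ccl17 over these same libraries, so this separation follows from the choice and tests nothing.

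Markers of blood leukocytes and dendritic cells were low in all libraries. Their summed level was 4.93 to 6.76 FPKM in fed and 5.06 to 6.53 FPKM in fasted cortex, and 13 of 16 stayed under 1 FPKM everywhere. No marker was at 0 in every library. The T cell marker Cd3e was at 0.115 FPKM or less, and the dendritic cell markers Itgax and Clec9a at 0.121 and 0.0748 FPKM or less. Of the 2 that were tested, the cytokine receptor gene Flt3 rose by 0.37 on the log2 scale, and Zbtb46 was at -0.07. Their part in the Ccl17 difference was not tested. In a tissue homogenate fewer or more cells of a type and less or more RNA per cell cannot be told apart.

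Ccl21b belongs to a family of CC chemokines, the homeostatic ligands of Ccr7 that guide T cells and dendritic cells to lymph nodes. The mouse genome holds several nearly identical copies. GENCODE M21 places Ccl21b on chromosome 4 at 42255767 to 42256432 and on 2 scaffolds outside the assembled chromosome sequence. The coding sequence of 402 nt is the same, base for base, in the chromosome 4 copies Ccl21b, Gm13304, Gm10591 and Gm21541. Ccl21a, at 42772860 to 42773993 and overlapped by 4930578G10Rik on the opposite strand, differs from it by 2 substitutions, A84T and T194C, with positions counted from the first base of the start codon and the base of Ccl21b given first. Both stretches are shown because only fragments that cover these bases can part the coding sequences of Ccl21a and Ccl21b. The differing base is in capitals.

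Ccl21b, coding bases 64 to 104: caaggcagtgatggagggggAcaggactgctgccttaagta
Ccl21a, coding bases 64 to 104: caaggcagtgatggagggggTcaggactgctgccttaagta
Ccl21b, coding bases 174 to 214: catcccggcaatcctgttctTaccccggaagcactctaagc
Ccl21a, coding bases 174 to 214: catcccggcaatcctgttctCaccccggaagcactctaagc

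The 7 rows named Ccl21b carried a set of values that moved between rows. In each of the 8 libraries exactly 3 rows were at 0 and the other 4 were above it, but not the same rows. In the fasted libraries the rows above 0 lay close together. In fasted replicate 2 they were at 4.66 to 4.70 FPKM, in fasted replicate 1 at 2.40 to 2.68, in fasted replicate 3 at 1.86 to 2.34 and in fasted replicate 4 at 2.17 to 2.42. In the fed libraries the rows of at least 0.1 FPKM were at 0.127 to 0.485 in replicate 1, 0.166 to 0.263 in replicate 2 and 1.09 to 1.38 in replicate 3, and no row of replicate 4 reached 0.1. Of 28 values in each group, 12 were at 0, so a row at 0 tells nothing about the feeding state.

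**Figure D3:**
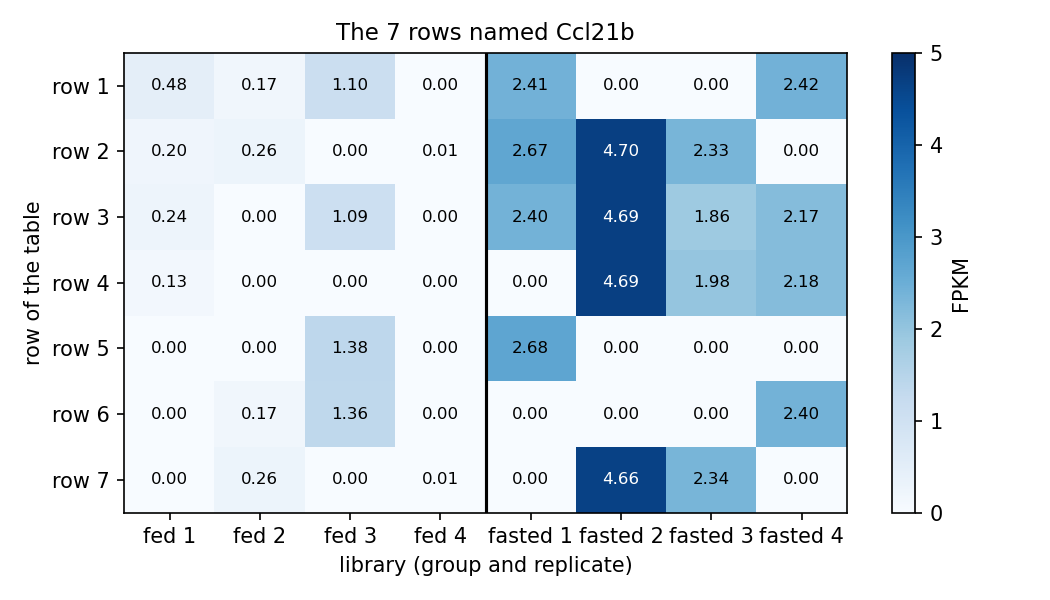
FPKM of the 7 rows named Ccl21b (vertical axis, in the order of the table) in the 8 libraries (horizontal axis, fed left and fasted right of the black line), with darker blue for higher values. Each library has 3 rows at 0, on different rows, and 4 rows above 0, which are highest and close in value in each fasted library.

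A sum over the rows does not depend on which row holds a value. It was 1.05, 0.852, 4.93 and 0.0262 FPKM in fed replicates 1 to 4 and 10.2, 18.7, 8.49 and 9.17 FPKM in fasted replicates 1 to 4. The groups did not overlap, and ad libitum replicate 3, the library with both Xist and Ddx3y, was the highest fed one. The row with the highest mean, which stood for the gene in the fit, was at 0.239, 0, 1.09 and 0.00463 FPKM fed and 2.40, 4.69, 1.86 and 2.17 FPKM fasted. Its log2 difference was 1.52, and that of the sum was 2.46. Within odd replicate numbers the sum differed by 1.56 and within even numbers by 3.36 on this scale, both higher when fasted.

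The other Ccl21 symbols differed among themselves. Summed over its 2 rows Ccl21a was at 0.00143, 1.47, 1.79 and 1.16 FPKM fed and 3.03, 3.34, 2.90 and 2.34 FPKM fasted, a log2 change of 0.98 (limma adjusted p = 0.0368 with rows summed). That call held in 6 of 13 settings, with adjusted p up to 0.0969, and was at 0.0620 with the replicate number as a block. Ccl21c, over 3 rows, was at 4.77 FPKM ± 1.17 fed and 4.80 ± 1.56 fasted (SD, n = 4 each; limma adjusted p = 0.980). Gm13304, over 4 rows, was at 14.8 FPKM ± 3.81 (SD, n = 4) fed and 15 FPKM ± 4.92 (SD, n = 4) fasted, with an adjusted p of 0.993 (limma). These 4 symbols together, Ccl21b included, summed to 26.4, 23.7, 24.3 and 15 FPKM fed and to 38.1, 36.2, 37.2 and 25.7 FPKM fasted, with overlapping groups and a ratio of means of 1.53. How the authors' software shared fragments among the copies is not given in the sources used here, so the value of each symbol is uncertain.

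Cxcl12, also called SDF-1, is a CXC chemokine that acts on Cxcr4 and is taken up by the atypical receptor Ackr3; in brain it is made by vascular and meningeal cells and some neurons. It lies on chromosome 6 at 117168535 to 117181367. Its levels were 17.7, 19.2, 18.2 and 17.8 FPKM in the fed libraries and 12.6, 12.9, 11.9 and 13.2 FPKM in the fasted ones. All fasted libraries were below all fed ones, and each group was tight. The fed mean was 18.2 FPKM ± 0.691 (SD, n = 4) and the fasted mean 12.6 FPKM ± 0.557 (SD, n = 4). The log2 change was -0.50 with SE 0.0516 (limma adjusted p = 1.37e-04). Without ad libitum replicate 3 the log2 change was also -0.50 (adjusted p = 0.00106).

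Markers of cells known to make Cxcl12 are given beside this fall. Over all tested genes 16.3% fell and 9.56% rose. Of 10 endothelial markers 2 fell and 0 rose, Tek and Itm2a with log2 changes of -0.52 and -0.53. The others did not pass the test. Among them Esam, Pecam1 and Slco1a4 had log2 changes of 0.23, 0.07 and 0.05, and Cldn5, Flt1, Cdh5, Ly6c1 and Ocln had negative ones. The summed endothelial level was 81.4 to 96.4 FPKM fed and 68.6 to 81.5 fasted. Of 6 tested pericyte and smooth muscle markers Rgs5 fell and 0 rose, with a summed level of 26.6 to 29.9 FPKM fed and 21.9 to 23.4 fasted. Of 9 tested meningeal and fibroblast markers Col1a1 fell and 0 rose, with a summed level of 509.4 to 736.1 FPKM fed and 489.3 to 859.0 fasted. Most of that sum was Ptgds, at a mean of 533.1 FPKM fed and 675.4 fasted, which did not pass the test. No marker of these lists was at 0 in every library. Their part in the Cxcl12 fall was not tested.

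Ccl27a encodes CTACK, a CC chemokine known from skin keratinocytes that attracts T cells through Ccr10. Its gene, at 41769467 to 41774247 on chromosome 4, has 19 annotated transcripts. It was the second most abundant member, at 102, 94.1, 91.9 and 77.0 FPKM fed and 68.7, 65.8, 67.7 and 68.3 FPKM fasted. Fed replicate 4 was the lowest of its group and still above every fasted library, and the fasted libraries lay close together. The fed mean was 91.3 FPKM ± 10.5 (SD, n = 4) and the fasted mean 67.6 FPKM ± 1.30 (SD, n = 4). The log2 change was -0.42 with SE 0.0769 (limma adjusted p = 0.00288; 0.0116 without ad libitum replicate 3).

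Ccl27a has a near copy, Ccl27b, at 42655251 to 42656005 on the same chromosome. Their coding sequences of 363 nt are identical at 360 bases. Ccl27b stood on 3 rows, and each library had 1 row at 0 and 2 above it. Summed, it was at 23.1, 21.6, 20.7 and 17.8 FPKM fed and 12.7, 14.0, 13.3 and 14.2 FPKM fasted, with no overlap, a log2 change of -0.58 (limma adjusted p = 4.11e-04 with rows summed, where 26.0% of genes passed). The call held in 12 of 13 settings and was lost after scaling to equal sums (adjusted p = 0.690). The last 8 bases of Ccl27a overlap the end of Il11ra1, a cytokine receptor gene on the opposite strand, which was at 5.93 FPKM ± 0.803 fed and 5.11 ± 0.264 fasted (SD, n = 4 each; limma adjusted p = 0.138). Whether the libraries keep strand is not given in the sources used here.

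Cx3cl1, or fractalkine, was the most abundant member. Its levels were 251, 253, 240.0 and 237 FPKM in the fed libraries and 214, 196, 201 and 205 FPKM in the fasted ones. The groups did not overlap. The fed mean was 245.0 FPKM ± 7.74 (SD, n = 4) and the fasted mean, which was 16.7% lower, 204.0 FPKM ± 7.46 (SD, n = 4). The log2 change was -0.26 with SE 0.0544 (limma adjusted p = 0.00554; 0.0190 without ad libitum replicate 3). This call ended after scaling to equal FPKM sums, with a log2 change of -0.14 (adjusted p = 0.356). That scaling moved the median of all tested genes from -0.02 to 0.08. Relative to that median, the change was -0.24 as deposited and -0.22 after equal-sum scaling.

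Of 8 excitatory neuron markers 5 fell and 0 rose, where 16.3% of all tested genes fell and 9.56% rose. Among the 5 were Neurod6, Tbr1, Rorb and Nrn1. Slc17a7, Camk2a and Cux2 did not pass the test, with log2 changes of 0.0045, 0.11 and 0.09. The summed level was 1176 to 1392 FPKM fed and 1231 to 1397 fasted. None of the 9 inhibitory neuron markers passed the test (limma; 1 at an unadjusted p under 0.05). No marker of either list was at 0 in every library. Their part in the Cx3cl1 fall was not tested.

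Cxcl14, a CXC chemokine made by some cortical interneurons, lies on chromosome 13 at 56288643 to 56296551. It was at 27.3, 26.1, 26.4 and 22.5 FPKM fed and 26.2, 23.1, 24.7 and 22.3 FPKM fasted. The groups overlapped, although the fasted library was the lower one at each of the 4 replicate numbers. The log2 change was -0.08, with a 95% interval from -0.24 to 0.07 (limma adjusted p = 0.407), and 0.04 after equal-sum scaling.

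Ccl25, or TECK, is known for drawing T cells with Ccr9 to the thymus and small intestine. Its gene, on chromosome 8 at 4325210 to 4360020, overlaps Elavl1 on the opposite strand by 204 bases. It was at 2.84, 2.98, 2.15 and 2.47 FPKM fed and 2.82, 3.04, 2.89 and 3.34 FPKM fasted, with overlapping groups. The log2 change was 0.16, with a 95% interval from -0.02 to 0.34 (limma adjusted p = 0.176).

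Cxcl16, like fractalkine a membrane-bound chemokine that can be shed, acts on Cxcr6 of T cells. Its gene, on chromosome 11 at 70453983 to 70459984, overlaps Zmynd15 on the opposite strand by 552 bases. It was at 0.352, 0.515, 0.417 and 0.5 FPKM fed and 0.337, 0.504, 0.327 and 0.601 FPKM fasted. The groups covered nearly the same range. In the fit with no filter on low values its log2 change was -0.0068 (limma adjusted p = 0.970).

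**Figure D4:**
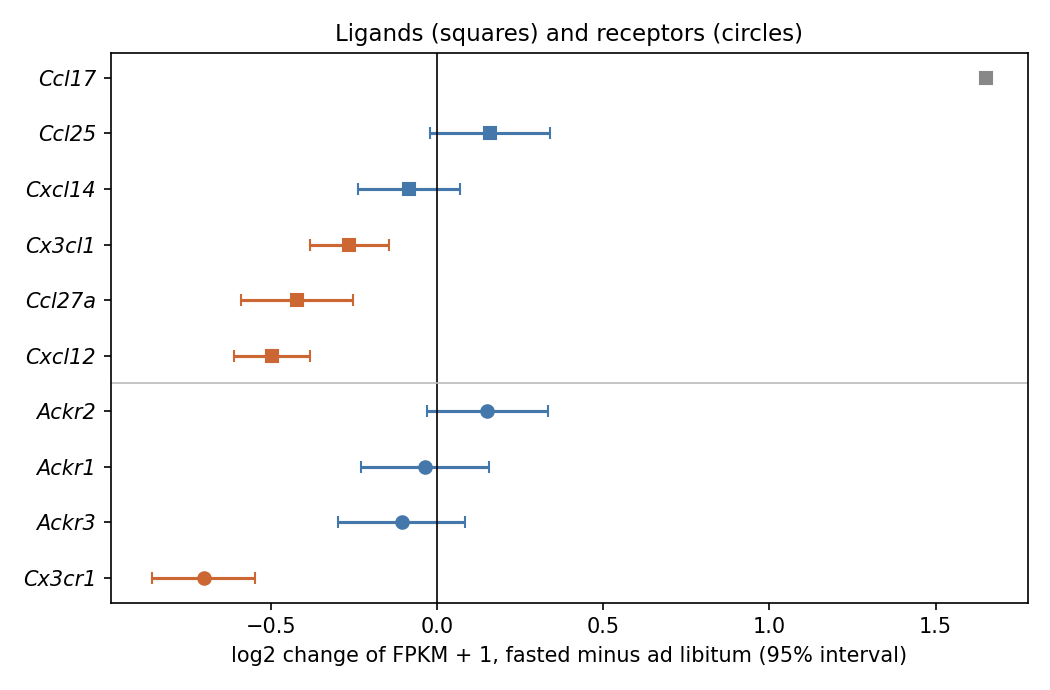
Log2 change of FPKM + 1, fasted minus ad libitum (horizontal axis), with 95% intervals from limma, for 6 of the ligands (squares) and 4 receptors (circles); orange passed the adjusted threshold of 0.05, blue did not, and grey Ccl17, chosen by its rise, is shown without an interval or test. The ligands Cxcl12, Ccl27a and Cx3cl1 and the receptor Cx3cr1 lie below 0 with their whole intervals.

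The receptors of these ligands were mostly scarce in cortex. Of 24 chemokine receptor genes listed, 19 stayed under 1 FPKM in every library, 5 were tested, 2 fell and 0 rose, with a median log2 change of -0.11. Cx3cr1, the receptor of fractalkine, was at 12.1, 12.2, 10.4 and 9.95 FPKM fed and 6.43, 6.78, 6.24 and 6.40 FPKM fasted, a log2 change of -0.70 with SE 0.0702 (limma adjusted p = 1.14e-04). Both fractalkine and its receptor were thus lower in fasted cortex, with no overlap for either gene.

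Cx3cr1 is a defining gene of microglia in brain. Of 14 microglial markers, with Cx3cr1 included, 7 fell and 0 rose, and the summed level was 150.3 to 209.3 FPKM fed and 130.0 to 148.9 fasted. No marker was at 0 in every library. P2ry12, a purinergic receptor gene of resting microglia, had a log2 change of -0.64. The part of the whole list in the fall of Cx3cr1 was not tested.

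The atypical receptors, which take up chemokines without G protein signalling, did not pass the test. Ackr3, which binds Cxcl12, was at 3.26 FPKM ± 0.364 fed and 2.96 ± 0.405 fasted (SD, n = 4 each; limma adjusted p = 0.396). Ackr1 was at 27.5 FPKM ± 3.54 (SD, n = 4) fed and 26.6 FPKM ± 1.82 (SD, n = 4) fasted, with an adjusted p of 0.792 (limma). It overlaps Cadm3 on the same strand by 493 bases, so its level is uncertain. Ackr2, a scavenger of inflammatory CC chemokines, had adjusted p = 0.203 (limma).

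The other receptors were too low to be tested. Cxcr4, the signalling receptor of Cxcl12, was at 0.409 to 0.769 FPKM fed and 0.347 to 0.675 fasted. Ccr4, the receptor of Ccl17, was at 0.0361 FPKM or less in every library. Ccr7, the receptor of the Ccl21 proteins, was at 0, 0, 0 and 0.0273 FPKM fed and 0.0884, 0.117, 0.0239 and 0.0526 fasted, so that both groups were near 0 and overlapped. Ccr9, Ccr10 and Cxcr6, the receptors of Ccl25, Ccl27a and Cxcl16, were at no more than 0.101, 0.196 and 0.122 FPKM. Ackr4, which takes up Ccl21 and Ccl25, was at 0.108 FPKM or less.

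Proteases that shed or trim chemokines did not pass the test. Of 9 listed, 6 were tested and 0 were called (limma; 2 at an unadjusted p under 0.05), with a median log2 change of -0.15. Adam10, a protease that sheds fractalkine and Cxcl16, was at -0.15 (adjusted p = 0.0959), and Dpp4, which clips Cxcl12, was at -0.15 (adjusted p = 0.152). The matrix protease gene Mmp14 was at -0.26 (adjusted p = 0.0699).

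Among the other 33 chemokine ligand genes listed, 27 stayed under 1 FPKM in every library, of which 6 were listed at 0 throughout, Ccl1, Ccl20, Ccl26, Cxcl2, Cxcl15 and Xcl1. The 3 tested as the row with the highest mean, Ccl21a, Ccl21c and Ccl27b, all stand on several rows, and 0 passed (limma; 0 at an unadjusted p under 0.05). With rows summed, a step chosen after seeing the data, 4 were tested, 2 rose and 1 fell. Ccl21a and Ccl27b are described above. The other was Ccl19, the second ligand of Ccr7, at 1.25, 1.40, 0.999 and 0.863 FPKM fed and 2.60, 3.25, 2.23 and 1.21 FPKM fasted. Its fasted replicate 4 lay within the fed range, and the log2 change was 0.61 (limma adjusted p = 0.0204). That call held in 9 of 13 settings and was lost when fasted replicate 1 (adjusted p = 0.0522) or 2 (0.0580) was left out, and likewise for ad libitum replicate 3 (0.0561) or 4 (0.0643).

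**Figure D5:**
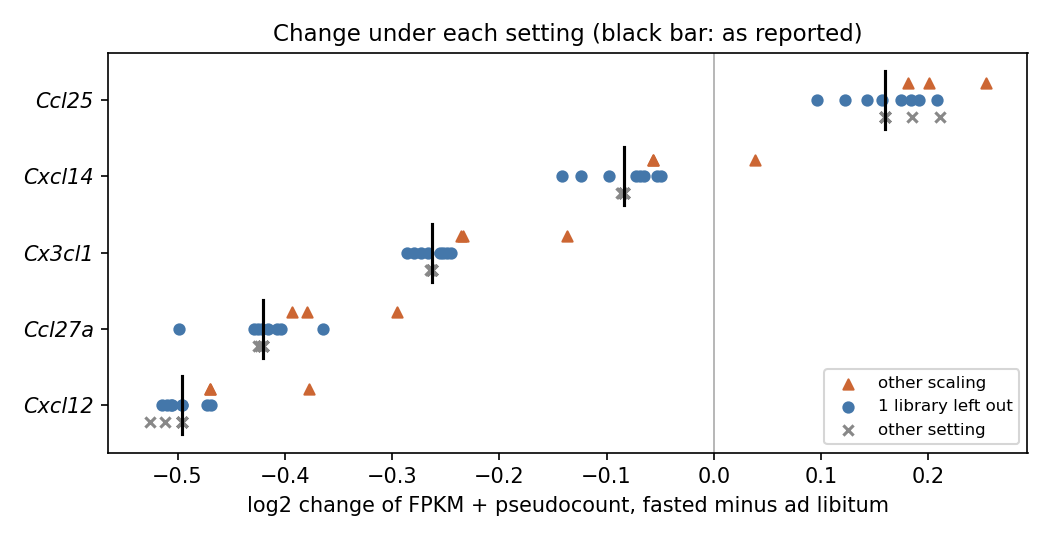
Log2 change, fasted minus ad libitum (horizontal axis), of the 5 tested ligands not picked for their rise, as reported (black bar) and under other settings: orange triangles are other scalings of the libraries, blue circles leave out 1 library and grey crosses are the remaining settings. Cxcl12, Ccl27a and Cx3cl1 stay below 0 in all settings shown, and Cxcl14 crosses 0 under equal-sum scaling.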

How the data were processed

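RNA-seq libraries of fasted and ad libitum fed mice, 4 per group, were compared, with groups from the treatment labels and replicate numbers from the titles. The authors deposited FPKM in 1 table. Per the submitters' processing notes TopHat and mm10 were used; the sources used here do not name the quantifier, annotation, strand setting or any scaling. FPKM totals were 254085.8 to 640016.8. The 282 symbols on several rows were represented by the row with the highest mean. Genes that reached 1 FPKM in 4 or more libraries were fitted as log2(FPKM + 1) with limma 3.58.1 in R 4.3.3 (trend, robust moderation, group as the only term) and adjusted by Benjamini-Hochberg over all tested genes. The steps were tested on simulated data. A few genes that entered the counts are not reported here. Members and gene lists were chosen with earlier results of these data known. The genes named are the members, their known receptors, called or more abundant genes of the ligand, receptor and protease lists, up to 3 called signalling genes with the smallest p, the neighbours and near copies, and the 3 profiles nearest to Ccl17.

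Coordinates are from GENCODE M21 (GRCm38, the assembly of mm10), in which 23292 symbols were found. Promoter letters are from RefSeq (GRCm38.p6), coding letters from GENCODE M21. A fragment's value was taken from the densest low product of FPKM and length in genes with 1 transcript of 400 to 650 nt (22 to 39 per library) or 1500 to 4000 nt. Deviations of same-numbered libraries from their group means correlated across genes at 0.574, 0.496, 0.382 and 0.523. Unlike numbers that were both odd or both even correlated at 0.165 to 0.381, and an odd with an even number at -0.546 to -0.256. The pattern thus followed in part the split of odd and even numbers, which is also that of the sexes. A pairing by replicate number is only a hint from the data that no label states, and was used as a block in an alternative. Other alternatives were 2 pseudocounts, no filter, 3 scalings, rows kept apart or summed, a term for odd and even numbers, no robust moderation and each library left out. Tables and figures were made with pandas 2.3.3 and matplotlib 3.10.9 in Python 3.11.15.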

Additional observations from a re-analysis of the deposited data

Results flagged for a closer look

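Among 46 groups of 4 libraries looked at, 2 had a value far from the other 3, and chance flags about 1 in 20. Both were in fasted replicate 2. The sum of the Ccl21b rows was 18.7 FPKM there, against 8.49 to 10.2 FPKM in the other fasted libraries. Ccl22 was at 0.322 FPKM there, against 0.253 to 0.256 FPKM.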

How the results depend on the processing

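The falls of Cxcl12 and Ccl27a kept their call in all 19 alternatives, with log2 changes from -0.53 to -0.38 and from -0.50 to -0.30. Cx3cl1 kept its call in 18 of 19 and lost it after equal-sum scaling (-0.14, adjusted p = 0.356), which divides by FPKM totals of 254085.8 to 640016.8, the highest in ad libitum replicate 2. The replicate block gave 1773 rises and 2733 falls over all genes, against 1183 and 2015, changed no call among the members tested, and ended that of Ccl21a. Quantile scaling gave 1792 rises and 1909 falls, median-ratio scaling 1740 and 1956, and equal-sum scaling 1585 and 534. Thus 37.0% of calls were rises as reported, and 48.4%, 47.1% and 74.8% after these scalings. Equal-sum scaling turned Cxcl14 to 0.038 and Ackr1 to 0.086. Ackr1 was also at 0.0092 without ad libitum replicate 2 and 0.0022 without fasted replicate 4, in a range down to -0.13. Receptors called ran from 1 to 2 when a library was left out, with 1 without any of the fed libraries, where fewer receptors passed the filter. Other ligands called were 0 as reported, 1 with no filter (Ccl22) and 3 with rows summed. Ccl17 was at 2.16 and Ccl21b at 2.08 with a pseudocount of 0.5, and 3.13 and 3.41 with 0.1. Ccl17 has no value without a fasted library, since 3 libraries at 1 FPKM do not pass the filter. The few fragments of Ccl17 and Ccl22 limit the precision of their folds.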

Other observations

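Of 28 genes that carry the signal of chemokine receptors inside the cell, 21 were tested, 1 rose and 5 fell, with a median log2 change of -0.09, where 25.8% of all tested genes passed in either direction. The list held 4 kinases that switch off activated receptors, of which 1 fell, 1 rose and 2 did not pass the test. Grk5 was at 3.45, 3.63, 3.74 and 3.47 FPKM fed and 2.12, 1.90, 2.32 and 1.80 FPKM fasted, a log2 change of -0.60 (limma adjusted p = 2.73e-04). Adrbk2, which encodes the receptor kinase GRK3, was at 19.3, 20.2, 19.6 and 19.7 FPKM fed and 25.6, 25.1, 25.7 and 24.2 FPKM fasted, a log2 change of 0.34 (limma adjusted p = 5.76e-04). Rgs2, which speeds the shut-off of G proteins, had a log2 change of -0.26 (limma adjusted p = 0.00918).

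Ligands known from inflammation stayed low in both groups. Ccl2 was listed at 0 in all 4 fed libraries and at 0.0885, 0.179, 0.144 and 0 FPKM in the fasted ones. Ccl3 was at 0.0837 to 0.455 FPKM fed and 0.244 to 0.911 fasted, and Ccl4 at 0.115 to 0.359 and 0.239 to 0.390. Ccl6, a CC chemokine of macrophages, was at 0.462 to 1.33 FPKM fed and 0.254 to 0.742 fasted, the platelet chemokine gene Pf4 at 0.139 to 0.870 and 0 to 0.946, and Ccl28, a mucosal CC chemokine, at 0.618 to 0.901 and 0.622 to 1.05. The groups overlapped for all 6, although for Ccl3 and Ccl4 the fasted library was the higher one at each of the 4 replicate numbers. Cxcl1, also known from inflammation, did not overlap, at 0.0682 FPKM or less fed and 0.0713 to 0.343 fasted. It was too low to be tested, and among tested genes 27.6% had separate groups.

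The pattern of zeros that changes rows was not confined to the chemokines. Of 20 repeated symbols with some rows at 0 and others above 0, 15 had the same number of rows at 0 in every library while the zeros fell on different rows. Values of such a symbol taken row by row therefore do not follow 1 locus across libraries.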
